A study of Mus musculus with 4 samples.

Results

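The genes described here are 10 feedback inhibitors of MAP kinase signalling, namely the dual-specificity phosphatases Dusp1, Dusp2, Dusp4, Dusp5, Dusp6 and Dusp10, the Sprouty genes Spry1 and Spry2, and the Sprouty-related genes Spred1 and Spred2. They were chosen by name, out of 23990 gene symbols, with earlier results of these data known, and all 10 were found. Their RNA was measured in effector CD4 cells (CD44+CD4) sorted at the onset of experimental autoimmune encephalomyelitis (EAE), a mouse model of multiple sclerosis induced by immunization with a myelin (MOG) peptide. The spinal cord (CNS) gave 2 libraries and the pooled draining lymph nodes (dLN) gave 2. All mice were wild type C57BL/6, immunized with MOG in complete Freund's adjuvant and given pertussis toxin. The Methods state that sorted cells were stimulated with PMA and ionomycin before RNA was taken, whereas the sample labels describe freshly sorted cells and name no stimulation. Cells were pooled over mice whose number, age and sex are not given in the sources used here, and nothing states that the libraries of a tissue came from separate groups of mice. The p-values therefore measure only the spread between these libraries, which may be technical.

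MAP kinases (ERK, p38 and JNK) carry signals from the T-cell receptor and from stress to the nucleus, and cells limit them by inducing their own inhibitors. Dual-specificity phosphatases remove the activating phosphates from the threonine and tyrosine of MAP kinases, each with its own preference for ERK, p38 or JNK and for nucleus or cytoplasm. Sprouty and Spred proteins act further upstream, on the way from receptors through Ras to Raf. PMA, which stands in for diacylglycerol, activates protein kinase C and RasGRP proteins and through them Ras and ERK.

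The stretches directly upstream of 3 of these genes are shown because they belong to the gene with the largest rise in CNS (Dusp1), another gene that was higher there (Dusp5) and the gene with the largest fall (Spry1). Each is 250 bases long, reads 5′ to 3′ on the strand of the gene and ends at the base before the RefSeq start, in build GRCm38.p6. The Dusp1 stretch is chr17:26508473-26508722 on the minus strand, the Dusp5 stretch chr19:53528895-53529144 and the Spry1 stretch chr3:37639697-37639946, both on the plus strand. Capitals mark TGACG or the full cAMP response element TGACGTCA in Dusp1, CArG boxes (the element bound by serum response factor) in Dusp5 and the GC box GGGCGG in Spry1.
Dusp1: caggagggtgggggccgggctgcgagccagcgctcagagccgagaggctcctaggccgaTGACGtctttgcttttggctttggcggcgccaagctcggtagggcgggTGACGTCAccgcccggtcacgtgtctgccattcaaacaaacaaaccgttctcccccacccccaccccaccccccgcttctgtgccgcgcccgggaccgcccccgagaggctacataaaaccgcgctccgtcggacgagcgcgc
Dusp5: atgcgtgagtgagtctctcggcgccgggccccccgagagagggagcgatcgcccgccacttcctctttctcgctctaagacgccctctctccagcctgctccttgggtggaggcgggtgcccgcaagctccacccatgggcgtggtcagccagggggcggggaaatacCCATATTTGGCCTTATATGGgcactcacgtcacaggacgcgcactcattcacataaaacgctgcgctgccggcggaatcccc
Spry1: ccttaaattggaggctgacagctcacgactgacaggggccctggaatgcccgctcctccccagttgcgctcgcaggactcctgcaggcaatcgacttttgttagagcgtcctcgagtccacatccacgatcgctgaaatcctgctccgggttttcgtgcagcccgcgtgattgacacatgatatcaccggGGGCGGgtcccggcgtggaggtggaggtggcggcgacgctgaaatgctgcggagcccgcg

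An upstream stretch was found in RefSeq for 9 of the 10 genes (Dusp4 was not in the table used). A full cAMP response element was found only in Dusp1 among the 9, where it starts 143 bases before the gene, and 1.55% of the 32851 upstream stretches of this length held it on either strand. CArG boxes were found only in Dusp5, which holds 2 that adjoin each other, starting 82 and 72 bases before the gene, and 1.47% of all stretches held at least 1. The shorter element TGACG, which is also part of the full element, was found in Dusp1, Dusp5 and Spred2, and in 17.8% of all stretches. The GC box was found in 7 of the 9, and in 32.7% of all stretches. CACGTG was found in Dusp1 and Dusp2 and in 6.02% of all stretches. The AP-1 element TGANTCA, the ETS element CCGGAAG and the NFAT core TGGAAA were found in none of the 9, and in 6.75%, 6.91% and 18.6% of all stretches. A match describes letters in this window and is neither a binding site nor a cause of the differences given here.

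Between CNS and dLN, the 10 genes moved in both directions. The deposited values are FPKM, that is fragments scaled by transcript length and by the depth of the library, which were summed over the transcripts of a gene. A mean of at least 1 FPKM in either tissue was required for the limma test on log2(FPKM + 1), and 10634 genes met it, among them 9 of these 10. Each log2 ratio given is that of CNS to dLN after adding 1 FPKM, and so understates the change of low genes. In limma, 8 of the 9 passed an adjusted p of 0.05 (Benjamini-Hochberg, over all genes tested), 4 of them higher and 4 lower in CNS. Over all tested genes 74.9% were called, 37.8% higher and 37.2% lower, so the count by itself does not set these genes apart. A call with a change of at least 1 on the log2 scale was reached by 6 of the 9, and by 39.2% of all tested genes. In 9 of the 10 genes the libraries of the tissues did not overlap, as in 89.4% of all tested genes. The median log2 ratio of the 9 was 0.012, beside 0.045 over all tested genes, and the median of its size was 1.09, beside 0.80. Since the genes were chosen with earlier results of these data known, these comparisons with all genes describe the list and test nothing.

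**Figure D1:**
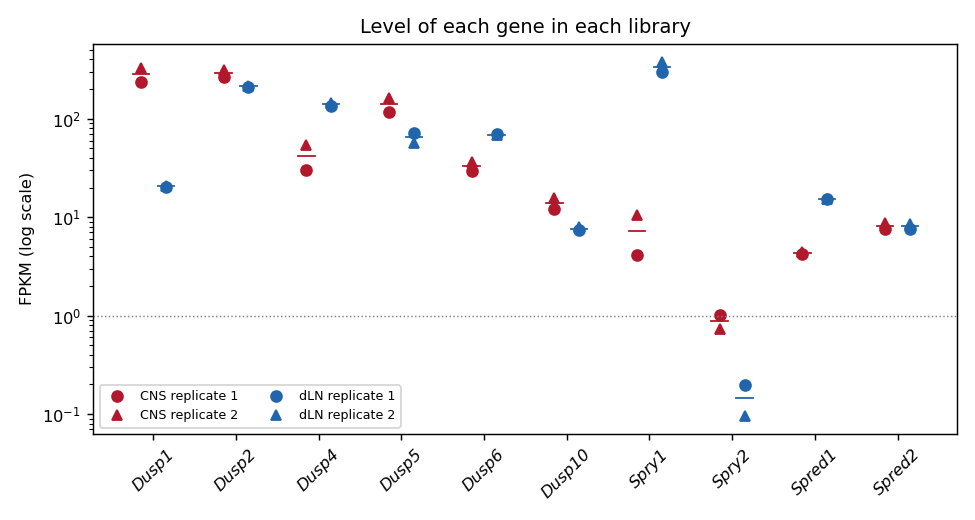
FPKM of each of the 10 genes (log scale) in the 2 CNS and 2 dLN libraries, with short lines at the tissue means and a dotted line at 1 FPKM. Dusp1 lies far higher in CNS and Spry1 far higher in dLN, while Spred2 overlaps.

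The spacing of low FPKM values put the depth of the libraries between 18.55 M and 21.95 M fragments. Of the CD4 T-cell markers, all 8 were read in every library (summed FPKM 2716 and 2726 in CNS, 984 and 908 in dLN), with 6 called higher in CNS, such as Cd3g, Cd4 and Cd3e, and 2 lower, Cd44 and Cd5. The CNS libraries differed from each other in myeloid markers, whose summed FPKM over the 9 found was 12.8 in CNS replicate 1 and 361 in CNS replicate 2, beside 4.52 and 3.99 in dLN. Of these 9, 3 were called higher in CNS, among them Lyz2, and S100a8 reached 101 FPKM in CNS replicate 2, with 0 listed for the other 3 libraries. The microglial markers Tmem119, P2ry12 and Sall1 were under 1 FPKM in each library, and Cx3cr1, which other myeloid cells and some T cells also express, was called higher in CNS (5.54 and 4.03 FPKM against 0.151 and 0.0508 in dLN). CD8 T-cell and NK-cell markers summed to 55.2 and 46.0 FPKM in CNS, mostly from Klrd1, against 4.38 and 3.93 in dLN, mostly from Cd8b1. Cd8b1 was at 3.66 and 4.56 FPKM in CNS, against 3.38 in both dLN libraries, and was not called. Klrb1c was called higher in CNS (2.53 and 3.22 FPKM against 0.0442 and 0 in dLN), while Cd8a, Ncr1 and Klra8 were under 1 FPKM. Neural markers summed to 49.9 FPKM in each CNS library and to 55.7 and 58.0 FPKM in dLN, nearly all from Mbp, which was called lower in CNS (log2 ratio -0.28), while Mog and Mag were under 0.1 FPKM. The astrocyte marker Gfap was called higher in CNS, at 0.655 and 2.51 FPKM with 0 listed for both dLN libraries (limma adjusted p = 0.0312), and the neuronal Snap25 was at 0.316 and 1.80 FPKM in CNS against 0.0028 and 0.025 in dLN (limma adjusted p = 0.0822). B-cell markers summed to at most 1.76 FPKM in any library, and endothelial markers to 20.7 and 25.3 FPKM in CNS against 12.04 and 9.66 in dLN, mostly from Pecam1, with Cldn5 (1.36 and 3.32 FPKM in CNS, 0 listed in dLN) and Cdh5 also called higher in CNS. Xist reached 26.6 and 22.3 FPKM in dLN but no more than 0.0026 in CNS, while the 4 Y-linked transcripts examined, such as Ddx3y and Eif2s3y, were read only in CNS. The cells of the tissues thus came from different mice, of different sex. Tissue cannot be told apart from sex or from other differences between those mice. The values of each tissue were also deposited in a separate table. Any difference in preparation or processing between the tables thus cannot be told apart from tissue. In these bulk samples, fewer cells of a type and less RNA per cell cannot be told apart either.

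Among the phosphatases of the nucleus, Dusp1 was far higher in CNS. Dusp1 (Entrez gene 19252, chr17:26505591-26508472, minus strand, mm10) encodes an immediate-early phosphatase that acts mainly on p38 and JNK and is also induced by stress and glucocorticoids. It reached 236 and 331 FPKM in CNS, against 20.1 and 20.9 in dLN. Both CNS libraries lay above both dLN libraries, the lower of them 11.3-fold above the higher dLN library. The means of 284 ± 67.7 FPKM in CNS and 20.5 ± 0.519 FPKM in dLN (SD, n = 2 each) differed by 3.71 ± 0.18 on the log2 scale (standard error; limma adjusted p = 0.000108). In rank this was the 92nd highest log2 ratio among the 10634 tested genes. Without CNS replicate 2, the library with the high myeloid markers, the log2 ratio was 3.46 and still called.

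Dusp2 (Entrez gene 13537, chr2:127336159-127338377, plus strand), a phosphatase of activated lymphocytes, was abundant in both tissues. It was at 266 and 312 FPKM in CNS, against 211 and 216 in dLN. The tissues did not overlap, but the lower CNS library was only 1.23-fold above the higher dLN library. The log2 ratio of 0.43 (standard error 0.10) had a limma adjusted p of 0.0140. This call was lost when each library was rescaled to the same sum of FPKM (log2 ratio 0.23, limma adjusted p = 0.0586), without dLN replicate 1 (0.42, adjusted p = 0.0768) and without dLN replicate 2 (0.45, adjusted p = 0.0662).

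Dusp4 (Entrez gene 319520, chr8:34807610-34819894, plus strand), an inducible phosphatase of ERK and JNK, fell in CNS. It was at 30.5 and 53.9 FPKM in CNS, against 136 and 144 in dLN. Both CNS libraries were below both dLN libraries, and CNS replicate 2 was 1.77-fold above CNS replicate 1. The log2 ratio was -1.76 (standard error 0.27, adjusted p = 0.00314 in limma). The ratio of Dusp1 to Dusp4 in FPKM was 7.73 and 6.15 in the CNS libraries and 0.149 and 0.145 in the dLN libraries.

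Dusp5 (Entrez gene 240672, chr19:53529318-53541322, plus strand), whose product is specific for ERK and holds it in the nucleus, was higher in CNS. It was at 117 and 163 FPKM in CNS, against 72.0 and 57.2 in dLN. The tissues did not overlap, and the log2 ratio was 1.09 (standard error 0.20, adjusted p = 0.00595 in limma). The transcript model behind these values has 1155 bases, a multiple of 3, and starts after the RefSeq start used for the upstream stretch. An antisense gene, AC137853.2, overlaps Dusp5 in GENCODE M21, and without strand their reads cannot be told apart.

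Dusp6 (Entrez gene 67603, chr10:99263231-99267489, plus strand) encodes the cytoplasmic phosphatase of ERK, itself a target gene of the ERK pathway. It was at 29.4 and 36.5 FPKM in CNS, against 69.7 and 68.6 in dLN. CNS lay below dLN in every pairing of libraries, and the log2 ratio was -1.06 (standard error 0.12, adjusted p = 0.00126 in limma). Dusp5 and Dusp6 thus moved in opposite directions, and Dusp5 over Dusp6 in FPKM was 3.97 and 4.46 in CNS against 1.03 and 0.834 in dLN.

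Dusp10 (Entrez gene 63953, chr1:184034461-184075636, plus strand), which acts on p38 and JNK, was at 11.97 and 15.7 FPKM in CNS, against 7.43 and 7.88 in dLN. It was higher in both CNS libraries, and its log2 ratio was 0.76 (standard error 0.15, adjusted p = 0.00673 in limma). Of the 6 phosphatases, 4 were thus called higher and 2 lower in CNS.

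**Figure D2:**
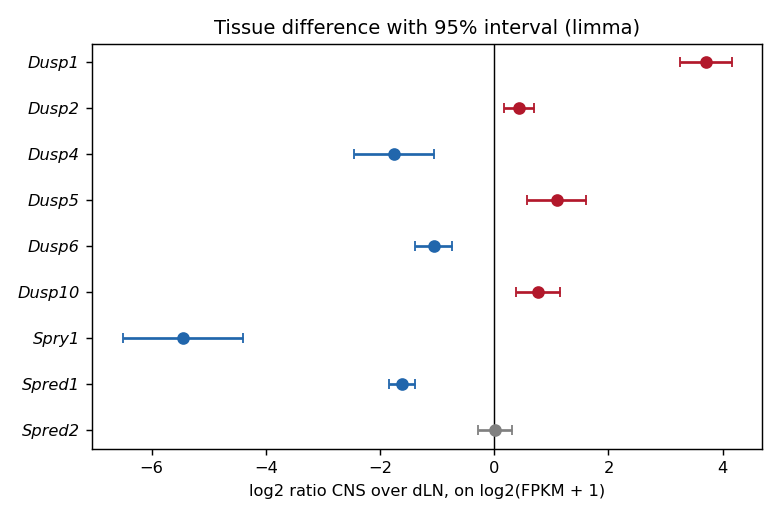
Log2 ratio CNS over dLN on log2(FPKM + 1) of the 9 tested genes, with 95% intervals from limma, red where called higher, blue where called lower and grey where not called. Dusp1 at 3.71 and Spry1 at -5.45 lie at the ends, and the interval of Spred2 spans 0.

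Spry1 had the largest difference of the 10 genes. Spry1 (Entrez gene 24063, chr3:37639950-37644599, plus strand) encodes an inhibitor of Ras and ERK signalling that is induced by T-cell receptor stimulation. It was at 4.11 and 10.5 FPKM in CNS, against 295 and 380 in dLN. The tissues lay far apart, since the lower dLN library was 28.1-fold above the higher CNS library. The mean in dLN, 338 ± 59.7 FPKM (SD, n = 2), was 46.2-fold that in CNS, 7.31 ± 4.53 FPKM (SD, n = 2). The log2 ratio was -5.45 (standard error 0.40, adjusted p = 0.000307 in limma), the 12th lowest of the 10634 tested genes. CNS replicate 2 was 2.56-fold above CNS replicate 1, and without either of them the log2 ratio stayed between -6.04 and -4.87. About 200 fragments in CNS replicate 1 and 522 in CNS replicate 2 stand behind these values, beside 12604 and 19262 in the dLN libraries. Gm42922 overlaps Spry1 on the opposite strand in GENCODE M21, so its reads cannot be told apart.

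Spry2 (Entrez gene 24064, chr14:105891947-105896819, minus strand), its paralog, was low in both tissues and did not reach the mean of 1 FPKM required for the test. It was at 1.02 and 0.730 FPKM in CNS, from about 41 and 30 fragments, and at 0.199 and 0.0952 FPKM in dLN, from about 7 and 4 fragments. The CNS libraries were above the dLN libraries, opposite to Spry1. With no filter on low values its log2 ratio was 0.70 (limma adjusted p = 0.0118).

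Spred1 and Spred2, which help to bring neurofibromin to Ras at the membrane, differed from each other. Spred1 (Entrez gene 114715, chr2:117121071-117182277, plus strand) was at 4.21 and 4.41 FPKM in CNS and at 15.2 FPKM in both dLN libraries. The libraries of each tissue were close together, and the log2 ratio was -1.61 (standard error 0.088, adjusted p = 0.000146 in limma). Of its pair of transcripts, the longer (6317 bases) carried most of the level, at 3.92 and 4.29 FPKM in CNS, against 14.4 and 13.6 in dLN. The shorter (2006 bases) was at 0.286 and 0.116 FPKM in CNS, against 0.882 and 1.57 in dLN.

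Spred2 (Entrez gene 114716, chr11:19924442-20022597, plus strand) was at 7.59 and 8.74 FPKM in CNS, against 7.65 and 8.51 in dLN. The tissues overlapped, with a log2 ratio of 0.012 (limma adjusted p = 0.924) and a 95% interval from -0.28 to 0.31. The sign of this value changed with the same sum per library, with quantile normalization and without CNS replicate 2 or dLN replicate 1. Spred1 over Spred2 in FPKM was 0.555 and 0.504 in CNS and 1.99 and 1.79 in dLN.

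The order of the levels changed between the tissues. In CNS it was Dusp2, Dusp1, Dusp5, Dusp4, Dusp6, Dusp10, Spred2, Spry1, Spred1 and Spry2 from high to low mean FPKM. The libraries of Dusp2 and Dusp1, of Dusp4 and Dusp6, of Spred2 and Spry1, and of Spry1 and Spred1 overlapped there. Within each CNS library Dusp4 was nevertheless above Dusp6 (30.5 against 29.4 and 53.9 against 36.5 FPKM). The order of the other overlapping neighbours in CNS changed between the libraries. Differences between neighbours were not tested. In dLN the order was Spry1, Dusp2, Dusp4, Dusp6, Dusp5, Dusp1, Spred1, Spred2, Dusp10 and Spry2, with overlap between Dusp6 and Dusp5 and between Spred2 and Dusp10. Spry1 held 35.4% and 41.4% of the summed FPKM of the 10 genes in dLN and 0.581% and 1.12% in CNS. Dusp1 held 33.4% and 35.4% in CNS and 2.41% and 2.27% in dLN. The sums themselves overlapped, at 707 and 937 FPKM in CNS, against 834 and 918 in dLN.

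**Figure D3:**
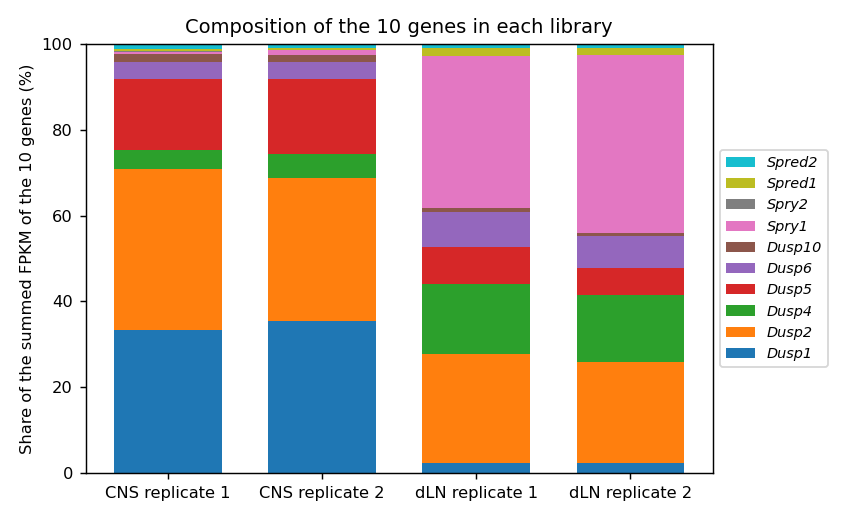
Share of the summed FPKM of the 10 genes (%) taken by each gene, as stacked bars from 0 to 100%, one bar per library. Dusp1 and Dusp2 fill most of the CNS bars, and Spry1 takes 35.4% and 41.4% of the dLN bars.

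All 9 tested genes were higher in CNS replicate 2 than in CNS replicate 1, beside 54.3% of all tested genes. Spry2, which was not tested, was lower. The part of the myeloid transcripts of CNS replicate 2 in these differences was not tested. Between the dLN libraries, 6 of the 9 tested genes were higher in replicate 2, beside 37.3% of all tested genes, and Spry2 was lower.

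Among the rest of the family the changes again went both ways. For the counts of this list and of those that follow, 37.8% of all tested genes were called higher in CNS and 37.2% lower. Of 22 other DUSP, slingshot, Sprouty and Spred genes listed, 15 were tested, and 8 were called higher and 2 lower in CNS. Their median log2 ratio was 0.55. The slingshot phosphatases Ssh2 (25.8 and 24.1 FPKM in CNS against 5.14 and 4.16 in dLN, log2 ratio 2.20) and Ssh1 (log2 ratio 1.99), which act on cofilin and not on MAP kinases, and Dusp19 (1.48) had the largest rises among those with a mean of at least 5 FPKM. Dusp16, a phosphatase of JNK and p38, was at 0.562 and 1.57 FPKM in CNS, against 5.05 and 5.39 in dLN (log2 ratio -1.63), and Dusp12 fell as well (-1.56). Dusp7, a cytoplasmic ERK phosphatase like Dusp6, did not pass the test (log2 ratio 0.31, limma adjusted p = 0.121). Spry4 and Spred3 stayed under 1 FPKM in each library.

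Upstream of the kinases, 25 of 28 genes of the Ras and Raf steps were tested, and 11 were higher and 8 lower in CNS. Their median log2 ratio was 0.12. Rasgrp2, a calcium-regulated exchange factor that acts mainly on the Ras relative Rap1, had the largest rise (26.4 and 26.7 FPKM in CNS against 1.08 and 0.496 in dLN, log2 ratio 3.97), followed by Rasa3, a GTPase-activating protein (3.32), and Plcg1 (1.95), which makes diacylglycerol. Rasa2 (-1.34), another GTPase-activating protein, and Pebp1 (-1.27), an inhibitor of Raf, fell in CNS. Nf1, the neurofibromin gene that acts with Spred proteins, averaged 1.31 FPKM in CNS against 2.67 in dLN (log2 ratio -0.67, limma adjusted p = 0.00557).

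Of 34 genes of the ERK, p38 and JNK kinases, 32 were tested, with 16 higher and 12 lower in CNS and a median log2 ratio of 0.35. Mapk3, which encodes ERK1, was at 50.04 and 49.0 FPKM in CNS, against 6.02 and 3.91 in dLN (log2 ratio 3.11). The p38 kinase kinases moved apart, with Map2k3 at 45.7 and 58.1 FPKM in CNS, against 416 and 474 in dLN (log2 ratio -3.08), and Map2k6 at 5.42 and 4.68 FPKM in CNS, against 0.0862 and 0.0964 in dLN (2.47). Mknk2 also rose (2.04), and Map3k5 (-1.85) and Mapkapk2 (-1.65) fell.

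**Figure D4:**
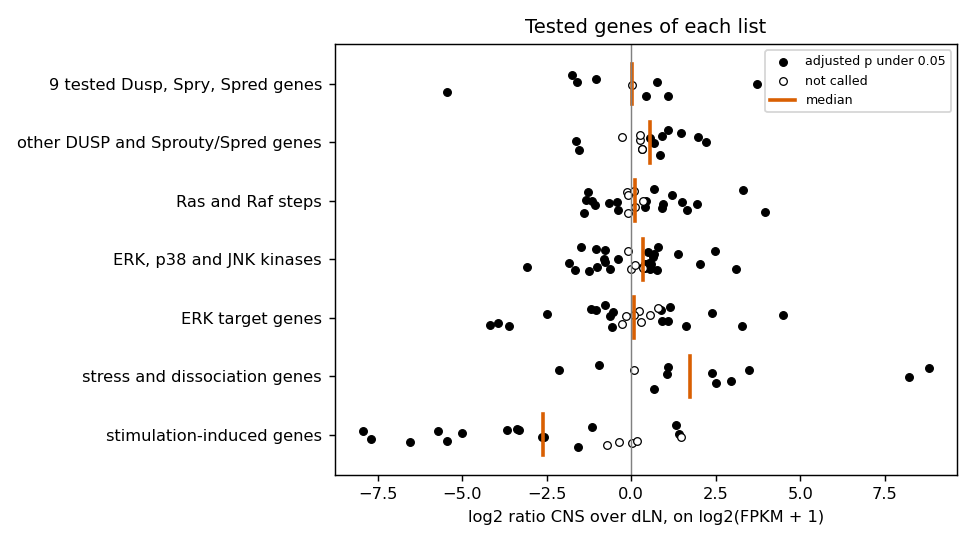
Log2 ratio CNS over dLN of each tested gene, one row per list, filled where the adjusted p was under 0.05, with an orange line at the median. The 9 Dusp, Spry and Spred genes and the genes listed as ERK targets lie on both sides of 0, stress genes mostly above it and stimulation-induced genes mostly below it.

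Genes listed as targets of ERK also went both ways. The list is broad, and beside target genes it holds the transcription factors Elk1, Elk3, Elk4 and Srf and the adaptors Dok1 and Dok2. Of these, Dok1 and Dok2 were called higher in CNS and Elk4 and Srf lower. All 25 listed genes were tested, 8 were higher and 10 lower in CNS, and the median log2 ratio was 0.088. Jun (293 and 391 FPKM in CNS against 13.8 and 14.4 in dLN, log2 ratio 4.49), Fos (3.29) and Junb (2.38), subunits of AP-1, rose in CNS as Dusp1 did. Egr2 (9.52 and 20.8 FPKM in CNS against 249 and 305 in dLN, log2 ratio -4.19), Myc (-3.95) and Fosl1 (-3.62) fell in CNS as Spry1 did. Egr1 did not pass the test (log2 ratio 0.22, limma adjusted p = 0.410).

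Genes of stress and tissue dissociation were higher in CNS. Of 12 listed and tested, 9 were higher and 2 lower, beside 37.8% and 37.2% of all tested genes. Their median log2 ratio was 1.73, and their summed FPKM was 8201 and 10704 in CNS and 3234 and 3215 in dLN. Hspa1b (8.81) and Hspa1a (8.23), almost identical genes that can share reads, and Dnajb1 (3.49) had the largest log2 ratios, and Atf3 (-2.13) and Hsph1 (-0.94) were lower. These genes moved with the rise of Dusp1, and their part in it was not tested. Genes that stimulation induces moved with the fall of Spry1. Of 20 listed and tested, 2 were higher, Ifng (log2 ratio 1.43) and Cd69 (1.32), and 13 lower, with a median log2 ratio of -2.61 and the largest falls in Il4 (-7.93), Il2 (-7.70) and Tnfsf8 (-6.55). Whether stimulation differed between the tissues was not tested.

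By the distance of centred log2 values over the 4 libraries, the tested genes most like Dusp1 were Isg15 (distance 0.13), Bbc3 (0.18) and Igflr1 (0.21), with log2 ratios of 3.64, 3.53 and 3.69. Those most like Spry1 were Gm2663 (0.23), Iltifb (0.47) and Il22 (0.54), with log2 ratios of -5.56, -5.28 and -5.71. Iltifb and Il22 are almost identical genes that can share reads. The 4 libraries fall into the same pair of tissues for every gene, so this likeness rests on the size of the tissue difference and on the spread within each pair of libraries.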

How the data were processed

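RNA of CNS and dLN effector CD4 cells was read in 2 libraries each, prepared with TruSeq RNA V2 kits, which do not mark strand. After trimming and mapping, the authors deposited FPKM for 33819 RefSeq transcripts (mm10), in 1 table per tissue. The aligner and the FPKM program are not given in the sources used here. The CNS table names both libraries in a single header cell, and its 2 value columns were taken in the order of those names.

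FPKM was summed by gene symbol, leaving out 565 transcripts without one (0.142% to 0.446% of FPKM). Tissues were compared across the 2 tables on log2(FPKM + 1) in R 4.3.3 with limma 3.58.1 (lmFit, then eBayes with its trend option). Genes needed a mean of 1 FPKM in either tissue, the model held tissue alone, and p-values were adjusted by Benjamini-Hochberg, with a threshold of 0.05. The scripts were tested on simulated data. An exact permutation test of 2 against 2 cannot go below p = 0.333 (two-sided). Low FPKM fell on whole fragments (within 0.05, over 1939 to 2362 values) in 90.3% to 92.7% of cases, where chance gives 10.0%, which gave the depth and the approximate fragments per gene; no count test was run.

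Genes and lists were chosen with earlier results of these data known, and the motifs after the sequences were seen. All 10 genes were named, as were up to 3 called genes per list and direction with the largest log2 ratio and a mean of at least 5 FPKM, and the 3 nearest patterns. Dusp7, Spry4, Spred3, Nf1, Egr1, Elk1, Elk3, Elk4, Srf, Dok1, Dok2 and markers under 5 FPKM were named after their values were seen. Some genes that this rule or these lists hold are not reported here. Starts count from 1. Upstream sequences are from RefSeq (GRCm38.p6), strand and overlaps from GENCODE M21. Alternatives covered pseudocount, scaling, transcript choice, filter, replicate block, variance trend, a minimum fold and each library left out. Python 3.11.15, numpy 2.4.6, pandas 2.3.3 and matplotlib 3.10.9 were used for the rest.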

Additional observations from a re-analysis of the deposited data

How the results depend on the processing

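Of 118 comparisons of a log2 ratio with its value under another setting, 110 changed neither direction nor call. The minimum fold was left out of these 118. Requiring a change of at least 1 on the log2 scale kept 6 of the 8 calls and dropped those of Dusp2 and Dusp10. With another filter, the replicate block or no variance trend the log2 ratio stays the same by construction. The same holds for the highest transcript in genes with a single transcript. In these settings only the call could change. Spry2, not tested with the filter, was called with no filter on low values (0.70). Rescaling to the same sum of FPKM lowered Dusp2 to 0.23, no longer called, and turned Spred2 to -0.16; this scaling shifted the median log2 ratio of all genes by -0.17, and the same upper quartile shifted it by 0.12. Quantile normalization turned Spred2 to -0.011; the cause was not tested. Spred2 was called in no fit. With each library left out in turn, Dusp2 lay between 0.32 and 0.55, losing its call without either dLN library, and Spred2 between -0.078 and 0.10. For the other genes these ranges were 3.46 to 3.95 for Dusp1, -2.16 to -1.36 for Dusp4, 0.85 to 1.33 for Dusp5, -1.21 to -0.90 for Dusp6, 0.58 to 0.95 for Dusp10, -6.04 to -4.87 for Spry1 and -1.64 to -1.58 for Spred1, with every call kept. Leaving out a library leaves 1 in its tissue, which is assumed to vary like the others. Over all genes 7968 were called, and 4168 when a change of at least 1 on the log2 scale was also required, since that adds a second criterion. Both tissues have libraries labelled 1 and 2, but no source describes a pairing. The sex-linked transcripts differed between the tissues, so libraries with the same label did not share mice. The replicate differences of the tissues had a correlation of 0.0933 across genes. With the replicate block 7828 genes were called, and the block changed no call among the 9 genes. The number of libraries and, for Spry2, the depth limit these values.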
